A study of Mus musculus with 8 samples.

Results

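The genes described here are the 9 that encode the Ca2+/calmodulin-dependent kinase II (CaMKII) subunits (Camk2a, Camk2b, Camk2d and Camk2g), the CaM kinase kinases (Camkk1 and Camkk2), CaM kinase IV (Camk4), eEF2 kinase (Eef2k) and its substrate eEF2 (Eef2). They were chosen by name, and each was matched through its Ensembl identifier to 1 row of a table of 20802 genes. Hippocampal RNA had been sequenced from 8 male C57BL/6 mice, with 1 library per mouse, to compare gene expression after repeated ketamine exposure with that in controls. The 4 mice of the Anesthesia group had received ketamine by intraperitoneal injection at 35 mg per kg once a day, 5 injections in all from postnatal day (PND) 16, and the labels give PND28 as the age of every mouse. The 4 mice of the Control group had received normal saline by the same schedule according to the protocol, although their sample titles call them untreated. The model is limited to males, 1 dose and 1 time point, and to RNA of the hippocampus as a whole. The labels tell the mice apart by number only, with no litter, cage or batch. The p-values of the group comparisons therefore set a difference against the spread between these 8 libraries.

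When Ca2+ enters a neuron it binds calmodulin, which activates CaMKII, a holoenzyme of many subunits that is concentrated at hippocampal synapses and is needed for long-term potentiation. The CaM kinase kinases switch on other kinases of the family, among them CaM kinase IV, which acts on transcription in the nucleus, and CaMKK2 also switches on the energy sensor AMPK. eEF2 kinase is itself activated by calmodulin, and by phosphorylating eEF2 it slows the elongation step of translation. Ketamine blocks NMDA receptors, a main route of Ca2+ entry, and eEF2 kinase is known from work on its antidepressant action. All of these proteins are regulated by phosphorylation, which RNA levels do not report.

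For none of the 9 genes was a difference between the groups found that exceeded the spread between mice. In the limma fit across 18865 genes, 0 of the 9 passed the adjusted threshold of 0.05, against 0% of all genes tested, and their adjusted p-values (Benjamini-Hochberg) were 0.652 to 0.989. Taken without adjustment, 0 of the 9 had a p under 0.05 either, while 8.02% of all genes did. The groups overlapped in all 9 genes, whereas 5.04% of all genes tested had groups that did not overlap. The log2 fold change was above 0 in 6 of the 9 and above 0 in 49.2% of all genes, and the median was 0.06 for the 9 genes and -0.004 for all genes. What set these genes apart from one another was the spread between mice, which was very small for Eef2 and very large for Camk2d.

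The deposited values are counts normalized by the authors, and they added up to 18702634 to 19231119 per mouse. From the spacing of low values, approximately 15500000 to 22200000 reads lay behind them per library. Over the whole table, limma called 0 genes after adjustment and 1513 at an unadjusted p under 0.05, of which 897 were higher and 616 lower in the Anesthesia group. The voom form of limma called 0 and 1510. The study itself reported differentially expressed genes at an adjusted p under 0.05 from a count model. The 0 given here is that of limma on the normalized values. Cell type marker lists for neurons, glia and vessels were detected in every mouse, CA1 pyramidal and dentate granule markers among them, and 0 of their genes stood at 0 in any library. The summed level of 11 choroid plexus genes ranged from 513 to 57676 in the Anesthesia group and from 669 to 67251.5 in the Control group. It was low in Anesthesia replicates 2, 3 and 4 and in Control replicate 1, and high in the other 4 mice, so a split by this level leaves 1 mouse of a group on each side. Its part in the results was not tested beyond a fit with this level as a covariate. In whole tissue, fewer cells of a type and less RNA per cell cannot be told apart.

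**Figure D1:**
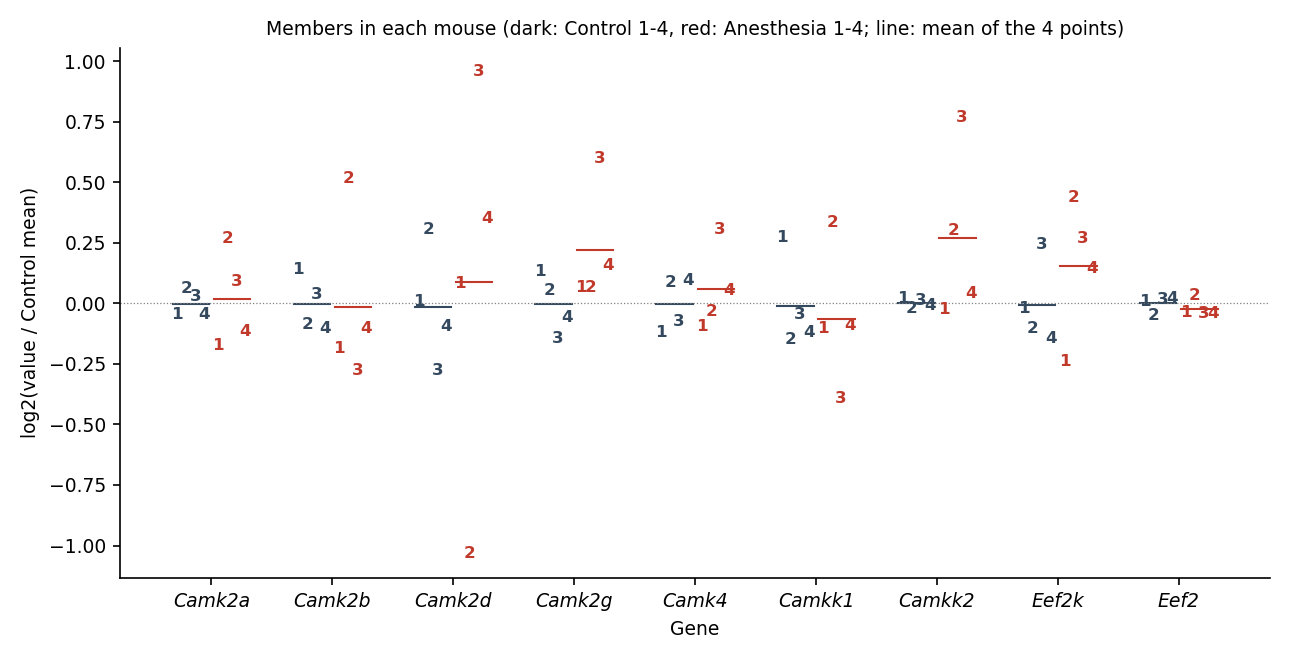
Log2 ratio of each mouse's normalized count to the Control mean (vertical axis) for the 9 genes (horizontal axis), where each numeral is a mouse, red for Anesthesia and dark for Control, and the lines are group means. Anesthesia replicates 2 and 3, singled out after the values were seen, held the highest value in 9 of 9 genes. Camk2d was spread over 3.97-fold while Eef2 stayed within 1.06-fold.

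Camk2a (ENSMUSG00000024617; GRCm38 chromosome 18, 60925618 to 60988152, plus strand) encodes the alpha subunit, the CaMKII form typical of forebrain excitatory neurons. Its normalized counts were 7804, 10579, 9365 and 8113 in Anesthesia replicates 1 to 4, and 8515, 9168, 8970.5 and 8524 in Control replicates 1 to 4. The Control mice thus sat inside the range of the Anesthesia mice, which held both the highest and the lowest value. The means were 8965 ± 1270.2 in Anesthesia and 8794 ± 328 in Control (SD, n = 4 each). The fold difference was 1.01, with a 95% interval of 0.883 to 1.16 (limma adjusted p = 0.963).

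Camk2b (ENSMUSG00000057897; chromosome 11, 5969644 to 6066362, minus strand) encodes the beta subunit, which binds actin and is the other main neuronal form. The Anesthesia values were 10546, 17180, 9898 and 11173 normalized counts and the Control values were 13214, 11311, 12322 and 11168. Anesthesia replicate 2 stood above all other mice, and the remaining 3 Anesthesia mice lay below the Control mean of 12004 ± 957 (SD, n = 4). The Anesthesia mean was 12199 ± 3361, and the fold difference was 0.993 with an interval of 0.791 to 1.25 (limma adjusted p = 0.989). Without Anesthesia replicate 2 the log2 fold change went from -0.01 to -0.19 (limma unadjusted p = 0.0262, adjusted p = 0.526).

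Camk2d (ENSMUSG00000053819; chromosome 3, 126596302 to 126846326, plus strand) encodes the delta subunit, which is best known from the heart. It varied more than any other of the 9 genes, with 1293, 597, 2371 and 1556 normalized counts in Anesthesia and 1228, 1508, 1010 and 1143 in Control. Anesthesia replicate 2 was the lowest and Anesthesia replicate 3 the highest of the 8 mice. The SD within groups was 0.61 on the log2 scale, larger than in 98.8% of the 12249 genes whose mean reached 100. The means were 1454 ± 733 and 1222 ± 211, and the fold difference was 1.07 with an interval of 0.646 to 1.79 (limma adjusted p = 0.942). The log2 fold change was 0.10, -0.19 without Anesthesia replicate 3 and 0.48 without Anesthesia replicate 2 (limma unadjusted p = 0.0346, adjusted p = 0.53 for the latter). The table lists 5 annotated genes that overlap Camk2d on the same strand, with means of 12.9 to 52.2, so its reads could have been divided with them.

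Camk2g (ENSMUSG00000021820; chromosome 14, 20734875 to 20794088, minus strand) encodes the gamma subunit, a form with a known part in carrying calmodulin to the nucleus. The Anesthesia values were 2773, 2770.3, 4012 and 2951 normalized counts, and the Control values were 2906, 2752, 2395 and 2545. Anesthesia replicate 3 was the highest, and the other 3 Anesthesia mice lay between the Control median and just past the Control maximum. The means were 3127 ± 596 and 2649.8 ± 225, and the log2 fold change of 0.22 ± 0.12 (SE) had an unadjusted p of 0.0805 and an adjusted p of 0.652 by limma. It was 0.10 without Anesthesia replicate 3 and 0.28 without Anesthesia replicate 2 (limma unadjusted p = 0.0472, adjusted p = 0.534), and 0.12 with the choroid plexus level as a covariate.

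Levels of different genes were compared per kb of exon sequence. In the Control mice Camk2b held 1315.5 ± 105 normalized counts per kb and Camk2a held 1178 ± 43.9 (SD, n = 4), with ranges that overlapped. Camk2g followed at 414 ± 35.2 and Camk2d at 54.3 ± 9.36 per kb. The neuronal subunits alpha and beta therefore made up most of the CaMKII transcript pool in every mouse. Their share was 81.8%, 87.8%, 76.2% and 81.3% in Anesthesia replicates 1 to 4, and 83.6%, 83.2%, 85.9% and 84.1% in Control replicates 1 to 4. The highest and the lowest share were both in the Anesthesia group, and the Control mice lay between them. The means were 81.8% ± 4.75 and 84.2% ± 1.18, a difference of -2.43 percentage points (two-sided exact permutation test over 70 splits, p = 0.4, Benjamini-Hochberg p = 0.6 over 3 values tested). Without Anesthesia replicate 2 the difference was -4.44 percentage points (exact permutation p = 0.0286, the smallest this test can give), and without Anesthesia replicate 3 it was -0.56 (exact permutation p = 0.771).

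**Figure D2:**
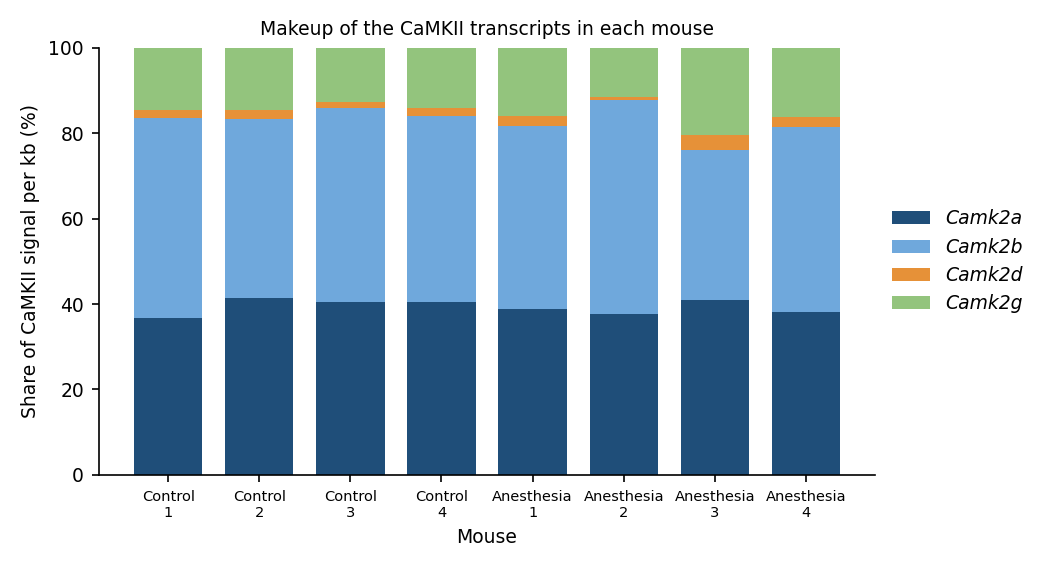
Share (%) of each subunit gene in the CaMKII signal per kb of exon sequence (vertical axis) in each of the 8 mice (horizontal axis), as stacked bars that add up to the whole. Camk2a and Camk2b together held 76.2% to 87.8%, and Camk2g ranged from 11.5% in Anesthesia replicate 2 to 20.4% in Anesthesia replicate 3.

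The alpha subunit kept a narrow share of 36.8% to 41.4% across the 8 mice. The beta subunit held 50.1% in Anesthesia replicate 2 and 35.3% in Anesthesia replicate 3, with the other 6 mice between them. The delta share was 0.706% in Anesthesia replicate 2 and 3.43% in Anesthesia replicate 3, and 1.51% to 2.26% in Control. Across the 8 mice, alpha thus varied less in share than beta and gamma did. This came from the Anesthesia group, where the SD was 1.37 percentage points for alpha, 6.03 for beta and 3.63 for gamma. In Control the SD was 2.04 for alpha, near the 2.17 of beta and above the 0.945 of gamma. The log2 ratio of Camk2a to Camk2b per kb of exon was -0.14, -0.41, 0.21 and -0.17 in Anesthesia, and -0.34, -0.01, -0.17 and -0.10 in Control. The highest and the lowest ratio were in the Anesthesia group. The means of -0.13 ± 0.26 and -0.16 ± 0.14 (SD, n = 4 each) differed by 0.03 (two-sided exact permutation test, p = 0.943, Benjamini-Hochberg p = 0.943).

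Camkk1 (ENSMUSG00000020785; chromosome 11, 73019008 to 73042073, plus strand) encodes CaM kinase kinase alpha, an activator of CaM kinases I and IV. Its normalized counts were 2543, 3446, 2077 and 2562 in Anesthesia and 3301, 2463, 2646 and 2510.4 in Control. High values occurred in 1 mouse of each group, Anesthesia replicate 2 and Control replicate 1, and the lowest was in Anesthesia replicate 3. The fold difference was 0.964 with an interval of 0.774 to 1.20 (limma adjusted p = 0.932). The log2 fold change was -0.05, 0.06 without Anesthesia replicate 3 and 0.04 without Control replicate 1, and thus turned direction with either mouse left out.

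Camkk2 (ENSMUSG00000029471; chromosome 5, 122731170 to 122779409, minus strand) encodes CaM kinase kinase beta, which also phosphorylates AMPK, an upstream kinase of eEF2 kinase. The Anesthesia values were 2493, 3130.1, 4326 and 2609 normalized counts, and the Control values were 2573, 2499.5, 2557 and 2524. The Control mice were close to each other, 3 of the 4 Anesthesia mice lay above the highest of them, and Anesthesia replicate 1 lay below the lowest. The means were 3139.7 ± 838 and 2539 ± 33.1, and the log2 fold change of 0.27 ± 0.14 (SE) was the largest of the 9 genes (limma unadjusted p = 0.0875, adjusted p = 0.66). It was 0.11 without Anesthesia replicate 3 and 0.37 without Anesthesia replicate 1 (limma unadjusted p = 0.0261, adjusted p = 0.421). With the choroid plexus level as a covariate it was 0.16. Without Anesthesia replicates 2 and 3 together, a fit added after the data were seen, it was 0.0068.

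Camk4 (ENSMUSG00000038128; chromosome 18, 32934931 to 33191228, plus strand) encodes the nuclear kinase that phosphorylates CREB. It held 1176, 1226, 1552 and 1304 normalized counts in Anesthesia and 1156, 1333, 1191 and 1341 in Control. Apart from the high value of Anesthesia replicate 3, the Anesthesia mice lay within the Control range. The fold difference was 1.04 with an interval of 0.904 to 1.20 (limma adjusted p = 0.862), and the log2 fold change of 0.06 was -0.02 without Anesthesia replicate 3. Per kb of exon, Control levels were 732 ± 104 for Camkk1, 385 ± 29.3 for Camk4 and 232 ± 3.03 for Camkk2. The range of Camk4 overlapped that of Camk2g.

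Eef2k (ENSMUSG00000035064; chromosome 7, 120842831 to 120907450, plus strand) encodes eEF2 kinase. Its normalized counts were 579, 926, 822 and 756 in Anesthesia and 673, 635, 808 and 617 in Control. Anesthesia replicates 2 and 3 lay above the Control maximum and Anesthesia replicate 1 below the Control minimum. The means were 771 ± 146 and 683 ± 86.3, and the log2 fold change of 0.16 ± 0.14 (SE) had a limma unadjusted p of 0.274 and an adjusted p of 0.762. It was 0.29 without Anesthesia replicate 1 (limma unadjusted p = 0.0271, adjusted p = 0.421) and 0.07 without Anesthesia replicate 2 or with the choroid plexus covariate. A transcript annotated on the opposite strand of Eef2k had a mean of 17.7. The study's methods name a stranded library kit and the labels another kit, so the use of strand in the counts was not established.

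Eef2 (ENSMUSG00000034994; chromosome 10, 81176631 to 81182498, plus strand) encodes the elongation factor that moves the ribosome along the mRNA. The values were 15286, 16048, 15242 and 15271 normalized counts in Anesthesia and 15807, 15174, 15896 and 15948 in Control. Of the Anesthesia mice, 3 lay within the gap between the lowest Control mouse and the other Control mice, and replicate 2 lay above all. The SD within groups was 0.035 on the log2 scale, and 0.506% of the 12249 genes whose mean reached 100 had a smaller one. The means were 15462 ± 391 and 15706 ± 359, so the fold difference of 0.984 had a narrow interval of 0.918 to 1.06 (limma adjusted p = 0.9). Of the 31-base words in the Eef2 transcripts, 21.2% also occurred in processed pseudogenes, against at most 0.79% for words shared by the other 8 genes. The only such pseudogene in the table had a mean of 29.9.

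Per kb of exon, Eef2 was the highest of the 9 genes in the Control mice at 4725 ± 108 normalized counts, and Eef2k was next to the lowest at 92.2 ± 11.6. The full order ran from Eef2 over Camk2b, Camk2a, Camkk1, Camk2g, Camk4, Camkk2 and Eef2k to Camk2d. On this length, only the neighbours Camk2b and Camk2a, and Camk2g and Camk4, overlapped between Control mice. When the longest coding transcript was used as the length, Camk2d stood at 221 and Eef2k at 104, and these genes changed places, as did Camk4 and Camkk2. Camk2b, at 2984 ± 238, then no longer overlapped Camk2a, at 1769.5 ± 65.9, while Camkk1 overlapped Camk2g. The log2 ratio of Eef2k to Eef2 per kb of exon was -5.88, -5.27, -5.37 and -5.49 in Anesthesia and -5.71, -5.73, -5.45 and -5.85 in Control. Ratios of both groups were interleaved, and the means differed by 0.18 (two-sided exact permutation test, p = 0.314, Benjamini-Hochberg p = 0.6).

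**Figure D3:**
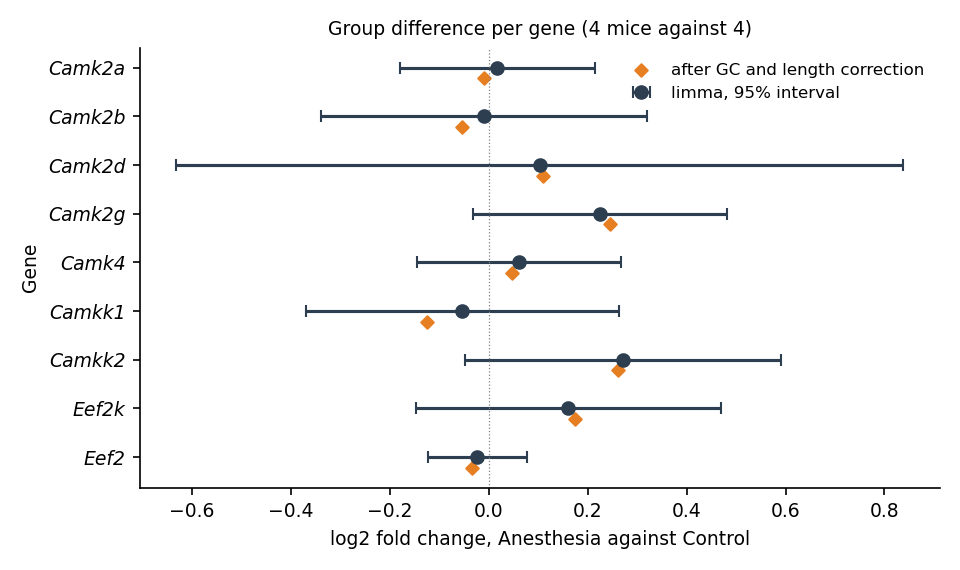
Log2 fold change of Anesthesia against Control (horizontal axis) for each of the 9 genes (vertical axis), with circles and bars for the limma estimate and its 95% interval and diamonds for the estimate after a correction for GC content and length. Each interval includes 0, and the widest belongs to Camk2d and the narrowest to Eef2.

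Anesthesia replicates 2 and 3 held the highest values of these genes. The highest of the 8 mice was Anesthesia replicate 2 in 5 genes and Anesthesia replicate 3 in 4, whereas 36.4% of all genes tested were highest in either. The lowest of the 8 mice was either of them in 3 of the 9 genes (33.3%), against 36.0% of all genes. The pair was singled out after the values were seen, so these contrasts are a description and no test. The mean log2 level of 5 dentate granule cell markers was 9.62, 10.26, 9.16 and 9.69 in Anesthesia and 10.21, 9.64, 9.73 and 9.22 in Control. Anesthesia replicate 2 was thus the highest and replicate 3 the lowest in this list. Prox1 sets granule cell identity and was chosen after its values were seen. It ranged from 957 normalized counts in Anesthesia replicate 3 to 2397 in Anesthesia replicate 2. Dsp had the same extremes. C1ql2, Stxbp6 and Trpc6 were instead highest in Control replicate 1. The lowest mouse was Control replicate 4 for C1ql2 and Stxbp6, and Anesthesia replicate 3 for Trpc6. These genes were also named after their values were seen.

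The 9 genes were set against 10 marker lists over the 8 mice, 90 relations in all, of which 11 had an unadjusted permutation p under 0.05 and 0 a Benjamini-Hochberg p under 0.05. The choroid plexus list was left out, since its levels fell into those separate clusters. Camkk1 followed the dentate granule list with a Pearson r of 0.934 (exact permutation p = 0.0013, adjusted 0.0551) and a Spearman rho of 0.929 (exact permutation p = 0.0022, adjusted 0.0821), and r was 0.745 without Anesthesia replicate 2 and Control replicate 1. Camk2b followed the same list with an r of 0.846 (exact permutation p = 0.0029, adjusted 0.0653) and a rho of 0.952. Its r was 0.641 without the same mice. Both genes also ran against the GABAergic interneuron list. There r was -0.846 for Camkk1 (exact permutation p = 0.0052, adjusted 0.0885) and -0.908 for Camk2b (exact permutation p = 0.0059, adjusted 0.0885). Without Anesthesia replicates 2 and 3, these were -0.593 and -0.521. Which list either gene followed was not tested. Both genes were high in the 2 mice with the highest granule cell marker level, 1 from each group.

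Camk2d followed the mean log2 level of 5 GABAergic interneuron markers, with an r of 0.923 (exact permutation p = 0.0011, adjusted 0.0551) and a rho of 0.905 (exact permutation p = 0.0046, adjusted 0.0821), and r was 0.772 without Anesthesia replicates 2 and 3. The markers did not move as 1 group in Anesthesia replicate 3, the mouse with the highest Camk2d. There Vip was the highest of the 8 mice (501 normalized counts) and Gad2 the lowest (1956), and the sum of the 5 markers, 8306, was below the 8572 to 9161 of the Control mice. Camk4 followed the mean log2 level of 5 excitatory neuron markers, with an r of 0.933 (exact permutation p = 0.0018, adjusted 0.0551), a rho of 0.905 and an r of 0.882 without Anesthesia replicate 3 and Control replicate 3. In Anesthesia replicate 3, whose level of this list was the highest, Tbr1 was the highest of the 8 mice (618 normalized counts) and Neurod6 the lowest (1319). These 4 marker genes were chosen after their values were seen. For Camk2g and the excitatory list, r was 0.846 over 8 mice but -0.521 without Anesthesia replicate 3 and Control replicate 3, so that relation rested on those mice. Camk4 also followed the microglia list (r = 0.782, exact permutation p = 0.0185, adjusted 0.238). It ran against the dentate granule list (r = -0.742, exact permutation p = 0.0394, adjusted 0.322). Eef2 ran against the GABAergic list (r = -0.742, exact permutation p = 0.0222, adjusted 0.25). Camk2g ran against the astrocyte list (r = -0.651, exact permutation p = 0.0319, adjusted 0.287). With the dentate granule level as a covariate, an alternative added after the data were seen, the SE of the log2 fold change went from 0.15 to 0.08 for Camk2b and from 0.14 to 0.06 for Camkk1. Neither gene had an adjusted p under 0.05 in that fit. The smaller SE restates their relation to the same list in the same 8 mice and adds no support to it.

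**Figure D4:**
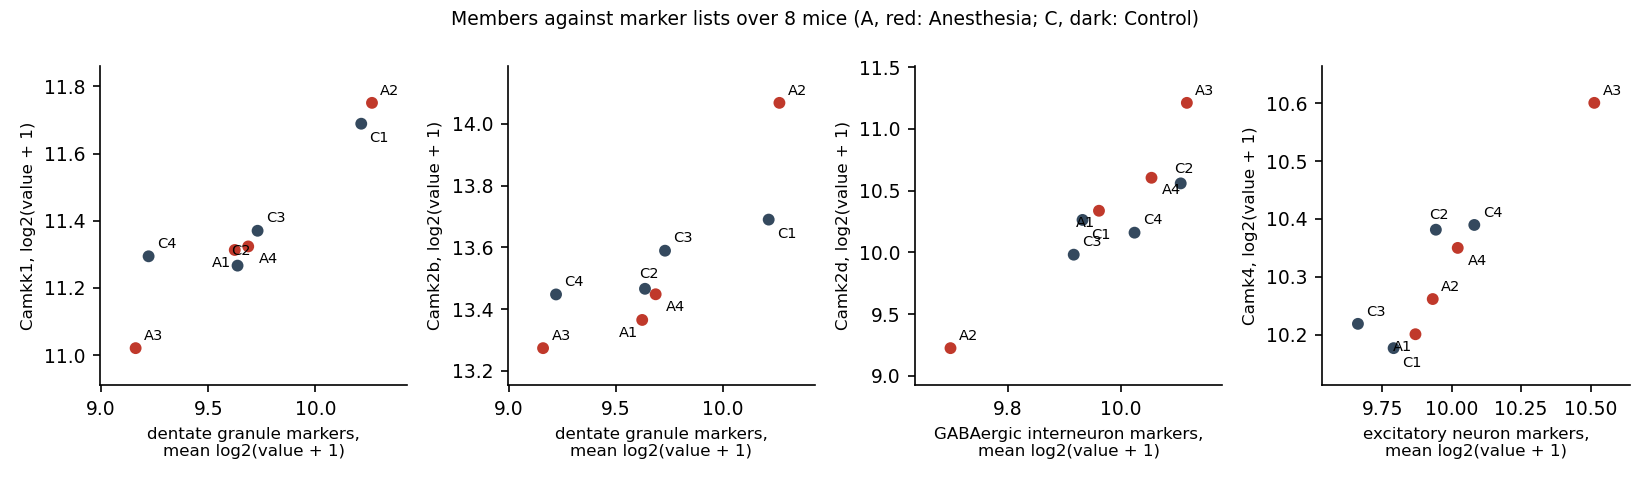
Levels of Camkk1, Camk2b, Camk2d and Camk4 (vertical axes, log2 of the normalized count plus 1) against the mean log2 level of a marker list (horizontal axes), where each point is a mouse, red for Anesthesia (A1 to A4) and dark for Control (C1 to C4). The Pearson r is 0.934, 0.846, 0.923 and 0.933, and Anesthesia replicate 2 or 3 lies at an end of each panel.

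Of 114 other genes of the pathway, in 9 lists, 113 were tested, and 60 were higher and 53 lower in the Anesthesia group. Among all genes tested, 49.2% were above 0, and this share stands beside the counts of each list below. The lists were chosen with earlier results of these data known, so their counts beside all genes are a description and no test. After adjustment, limma called 0 of the 113. Without adjustment, 8 of them were higher with a p under 0.05, against 4.75% of all genes tested, and 2 were lower, against 3.27%. The groups did not overlap in 8 of the 113 genes, beside the 5.04% of all genes given above. From each list, the gene with the smallest p in each direction is named, and others are marked as chosen after their values were seen.

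Among 13 genes for calmodulin and calmodulin buffers, 2 were higher and 11 lower, with a median log2 fold change of -0.07. Calb2, which encodes the Ca2+ buffer calretinin, had 465, 227, 289 and 498 normalized counts in Anesthesia and 533, 541, 483 and 438 in Control. The pair of low Anesthesia values came from replicates 2 and 3, and the groups overlapped (log2 fold change -0.50, limma unadjusted p = 0.0474, adjusted p = 0.622). Nrgn, for neurogranin, which binds calmodulin in dendrites, had means of 2130.2 ± 361 in Anesthesia and 1839 ± 86.0 in Control (limma adjusted p = 0.664). Of the 11 other CaM kinases, 6 were higher and 5 lower, and Dclk1 at 0.17 and Pnck at -0.15 on the log2 scale had the smallest p in their direction (limma adjusted p = 0.652 and 0.782).

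Among 11 CaMKII inhibitors and phosphatases, 4 were higher and 7 lower, and 0 passed the unadjusted mark. Camk2n1, an inhibitor protein of CaMKII, had 4663, 4778, 9048 and 4788 normalized counts in Anesthesia and 4509.9, 4486, 4233 and 4927 in Control. Anesthesia replicate 3 alone was far above the other 7 mice, and the limma adjusted p was 0.689. Ppp1cb, a catalytic subunit of protein phosphatase 1, had a log2 fold change of -0.17 (limma adjusted p = 0.651).

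Of 18 CaMKII anchors and substrates, 15 were higher and 3 lower, beside 49.2% of all genes tested above 0. Of the 18, 2 were higher with an unadjusted p under 0.05, against 4.75% of all genes. The median was 0.10, or 0.05 after the GC and length correction. Rims1, a scaffold of the presynaptic active zone, had a log2 fold change of 0.32 ± 0.09 (SE), and its groups did not overlap (limma adjusted p = 0.593). Gria1, the AMPA receptor subunit phosphorylated by CaMKII, had 16547, 19934, 11661 and 16042 normalized counts in Anesthesia and 16971 to 18065 in Control. The Anesthesia mice again lay on both sides of the Control range (limma adjusted p = 0.754).

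The inputs to eEF2 kinase were split evenly, with 10 higher and 10 lower of the 20 genes found. Mtor, the kinase through which nutrients and growth factors restrain eEF2 kinase, had 3269.6, 3199, 3119 and 3247 normalized counts in Anesthesia and 3101, 2911, 2872 and 2839.6 in Control. Every Anesthesia mouse was above every Control mouse, by a small margin, with a log2 fold change of 0.13 ± 0.05 (SE, limma unadjusted p = 0.026, adjusted p = 0.62). Prkaa1, a catalytic subunit of AMPK, which activates eEF2 kinase, had 747, 879, 674 and 777 in Anesthesia and 839, 906, 876 and 861 in Control. Here 3 of the 4 Anesthesia mice were below every Control mouse, and Anesthesia replicate 2 was not (log2 fold change -0.18, limma unadjusted p = 0.0507, adjusted p = 0.622).

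Of 8 other elongation factors, 1 was higher and 7 were lower, with a median of -0.10. Eef1b2, part of the exchange factor that reloads eEF1A with GTP, had 1575, 1461, 1352 and 1539.7 normalized counts in Anesthesia and 1614, 1617, 1655 and 1662 in Control. All Anesthesia values lay below all Control values (log2 fold change -0.15, limma unadjusted p = 0.0387, adjusted p = 0.622). Eef1a2, the neuronal form of eEF1A, was the gene above 0, at 0.08 (limma adjusted p = 0.763). Of 7 genes for diphthamide, a modified histidine found in eEF2, 4 were higher and 3 lower, and Dph3 had 463, 479.9, 458 and 426 normalized counts in Anesthesia against 549, 498, 481 and 520.4 in Control. These groups did not overlap, with a log2 fold change of -0.16 (limma unadjusted p = 0.0536, adjusted p = 0.627), while Dph6 stood at 0.11 (limma adjusted p = 0.847).

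The list of CREB and CaMK4 partners, coactivators and class II histone deacetylases among them, had 10 of 13 genes higher and a median of 0.22. Of the 13, 5 were higher with an unadjusted p under 0.05. Among all genes tested, 49.2% were above 0, 4.75% were higher at that mark, and the median was -0.004. Since this list was chosen with earlier results of these data known, the contrast with all genes was not a test. Hdac4, a deacetylase that CaM kinases move out of the nucleus, had 1427, 1549, 1631 and 1513 normalized counts in Anesthesia and 1239, 1194, 1291 and 1229.5 in Control. The groups did not overlap, and the log2 fold change was 0.30 ± 0.06 (SE, limma unadjusted p = 0.000472, adjusted p = 0.565). The other 4 were Crtc1, Crebbp, Ep300 and Hdac5, named after their values were seen. Crebbp, the coactivator that binds phosphorylated CREB, had 2332, 2572, 2692 and 2588 in Anesthesia and 2150.1, 2314, 2059 and 2133 in Control. Its groups were separate but close, with a log2 fold change of 0.23 (limma adjusted p = 0.568). Crtc1, a Ca2+-regulated CREB coactivator, had 712, 892, 956 and 867 in Anesthesia and 624, 717, 666 and 636 in Control, which overlapped in 1 mouse (log2 fold change 0.37, limma adjusted p = 0.568). Crtc3 had the smallest p of the 3 lower genes, at -0.08 (limma adjusted p = 0.832). With Anesthesia replicates 2 and 3 both left out, 3 of the 13 genes were higher at the unadjusted mark, as were 524 of all 18865 genes.

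Among 12 activity-regulated targets of these kinases, 8 were higher and 4 lower, and 0 passed the unadjusted mark. Egr3, an immediate early transcription factor, stood at 0.16 and Egr2 at -0.27 (limma adjusted p = 0.677 and 0.793). Bdnf, a growth factor whose translation has been tied to eEF2 kinase, was named for that role after its values were seen. It had means of 789 ± 238 normalized counts in Anesthesia and 855 ± 97.9 in Control (SD, n = 4 each, limma adjusted p = 0.817).

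**Figure D5:**
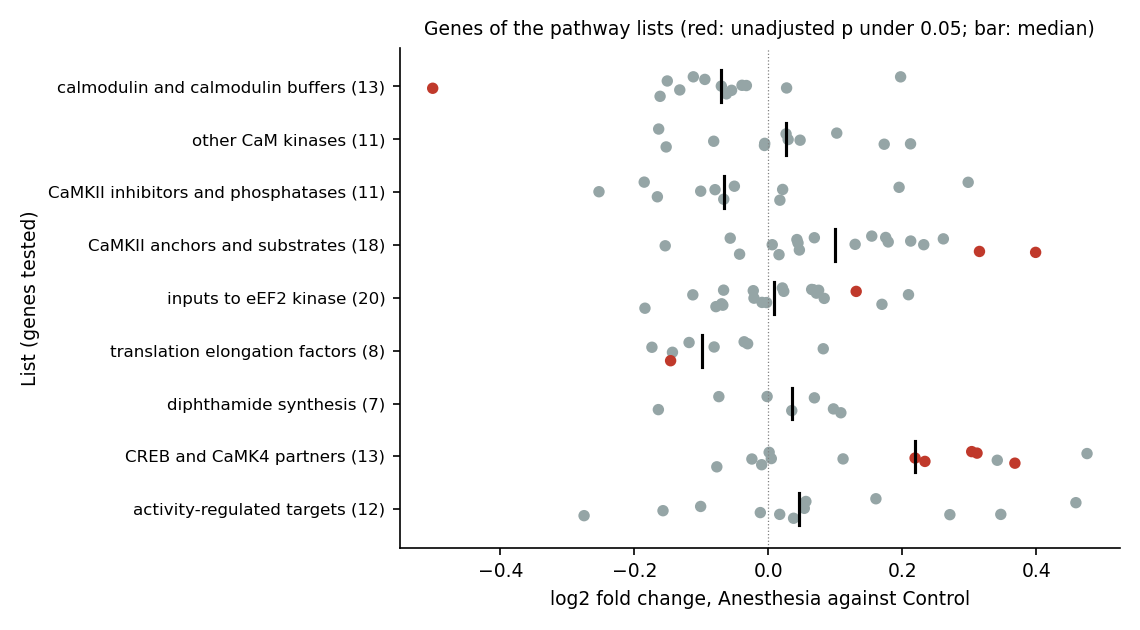
Log2 fold change of Anesthesia against Control (horizontal axis) of the 113 genes tested in 9 pathway lists (vertical axis, genes tested in brackets), with red points for an unadjusted limma p under 0.05 and a bar at each list's median. The 8 red points on the right include 5 of the 13 CREB and CaMK4 partners, and the 2 on the left are Calb2 and Eef1b2. Of all genes tested, 4.75% were higher and 3.27% lower at that mark. The lists were chosen with earlier results of these data known.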

How the data were processed

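RNA-sequencing of the hippocampus of 8 mice was analysed. According to the submitters' processing notes and the study's methods, the authors quantified transcripts against GRCm38 in Salmon 1.1.0, corrected for GC bias, collapsed them to genes (tximport) and normalized the counts in DESeq2 1.30.1 (R 3.5.3). The deposited values are therefore a normalized signal, not read counts. The annotation release is not given in the sources used here. Of the low values, 51.6% to 73.3% lay within 0.1 of a whole read. Read counts were not recovered, and limma on log values was used in place of a count model. Columns were assigned to mice by their group letter and number. GENCODE M21 gave symbols and positions for 20784 identifiers and none for 18, and Mapk13 of the pathway lists was not found.

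Values were compared with limma 3.58.1 in R 4.3.3, with a mean-variance trend on log2(value + 1), over 18865 genes whose mean reached 10 (1937 lower genes were left out), two-sided and without covariates. The Benjamini-Hochberg adjustment ran over all genes tested, with a threshold of 0.05. Fold changes are on the log2(value + 1) scale. Ratios and shares per mouse were compared by exact permutation tests, whose smallest possible p was 0.0286. The 9 genes, the pathway lists and the marker lists were chosen with earlier results of these data known. Named genes are the 9, the gene with the smallest p in each direction in each list, and the 5 genes with the highest Pearson r with Camk2a and with Eef2k. Other genes are named where the text says that they were chosen after their values were seen. The alternatives were upper quartile, TMM and column total scaling, voom, other filters on low values, a pseudocount of 0.1, an adjusted p under 0.10, a loess correction for GC content and length, a choroid plexus covariate, the replicate number as a block, and each mouse left out in turn. The dentate granule covariate and leaving out Anesthesia replicates 2 and 3 together were added after seeing the data. The scripts were tested on simulated data. The values of some marker genes are not reported here.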

Additional observations from a re-analysis of the deposited data

Results flagged for a closer look

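In 46 groups of 4 mice (the 9 genes, the ratios and the marker lists in each group), 4 had a sample farther from its neighbours than Dixon's criterion allows. Chance flags about 1 in 20 groups, which is 2.3 of 46. In the Anesthesia group, Camk2g was 4012 normalized counts in replicate 3 against 2770.3 to 2951 in the other mice, a gap of 0.854 of the range. Eef2 was 16048 in Anesthesia replicate 2 against 15242 to 15286, a gap of 0.947 of a range that is itself narrow. The mean log2 level of 5 astrocyte markers was 11.79 in Anesthesia replicate 2 against 11.65 to 11.67 (a gap of 0.862 of the range), and 11.75 in Control replicate 1 against 11.79 in each of the other Control mice (0.83).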

How the results depend on the processing

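The count of genes at an adjusted p under 0.05 was 0 under every alternative except with mice left out, where it was 0 to 2 (2 without Control replicate 1). The unadjusted count of 1513 was 904 with the choroid plexus covariate, 943 with the GC correction and replicate block, and 961 without Anesthesia replicates 2 and 3, and the cause was not tested. The share of higher genes among these was 59.3%, and it was 51.2% with column total scaling and 65.6% with upper quartile scaling. The replicate numbers did not pair the mice (correlations of -0.242, -0.109, -0.182 and 0.019), and the block gave 0 adjusted and 1084 unadjusted calls, with 0 of the 9 genes among them. For the ratios and the share, the block gave the same differences of 0.03, 0.18 and -2.43, and changed no call.

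Of the 9 genes, 0 to 3 had an unadjusted p under 0.05 with a mouse left out (2 without Anesthesia replicate 1, 3 without Anesthesia replicate 2, 1 without Anesthesia replicate 4), and 1 did without Anesthesia replicates 2 and 3 (Camk2a, -0.14, limma unadjusted p = 0.0246, adjusted p = 0.931). Some log2 fold changes turned direction. Camk2a was -0.0087 with the GC correction, with or without the block, and -0.032 with the choroid plexus covariate. Camk2b was 0.0011 with upper quartile scaling and 8.27e-07 with the dentate granule covariate. Without Anesthesia replicates 2 and 3, Camk4 was -0.016, Eef2k -0.038 and the Camk2a to Camk2b log2 ratio -0.0018. Camkk2 kept its direction in that fit, but its log2 fold change went from 0.27 to 0.0068. With each mouse left out, the ranges were -0.065 to 0.081 for Camk2a, -0.19 to 0.079 for Camk2b, -0.19 to 0.48 for Camk2d, 0.099 to 0.28 for Camk2g, -0.021 to 0.11 for Camk4, -0.19 to 0.058 for Camkk1, 0.11 to 0.37 for Camkk2, 0.066 to 0.29 for Eef2k and -0.041 to -0.015 for Eef2. They were -0.086 to 0.12 for the Camk2a to Camk2b ratio, 0.11 to 0.31 for the Eef2k to Eef2 ratio, and -4.44 to -0.56 percentage points for the share of Camk2a and Camk2b. With 4 mice a group, the intervals of Camk2d allow differences of up to 1.79-fold.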

Other observations

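Genes whose pattern over the 8 mice was most like that of Camk2a, among 12248 genes with a mean of at least 100, were Smad1, a transducer of bone morphogenetic protein signals, AI593442, Zfp513, Gm26803 and Cadm2, a synaptic cell adhesion molecule. Their Pearson r with Camk2a was 0.945, 0.944, 0.936, 0.928 and 0.924 (n = 8 mice), and 0.788, 0.747, 0.862, 0.878 and 0.615 without Anesthesia replicates 1 and 2, the mice at the ends of the Camk2a range. For Eef2k they were Zfp212 (r = 0.984), Magi2, a synaptic scaffold protein (0.952), C030015A19Rik (0.945), Fads1, a fatty acid desaturase (0.935), and Sema5b, a semaphorin (0.934). Zfp212 kept an r of 0.971 and Sema5b one of 0.934 without Anesthesia replicates 1 and 2. These values describe the 8 libraries and carry no test, since the genes were picked as the highest of 12248.

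In Anesthesia replicate 3, which held the highest Camk2d, Camk2g, Camk4 and Camkk2, Mef2c, a transcription factor of excitatory neurons, had 9155 normalized counts against 2709 to 4134 in the other mice. This gene was chosen after its values were seen.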
